A study of Mus musculus with 6 samples.

Results

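The genes described here are the 35 N-glycosylation genes of the mouse that build the sugar donor for N-linked glycans, transfer it to proteins and start to trim it. They were chosen by their names from the 54446 genes of the deposited table. No measured value entered this choice, although earlier results of these data were known. All 35 were found, each under 1 identifier, and all 35 passed the filter of a mean of at least 10 normalized counts, as 12322 genes did. RNA came from naive B cells isolated from the spleens of young adult *Tent5c* KO mice and their WT littermates of mixed C57BL/6J X CBA background, and activated in culture with IL-4 (20 ng/ml) and LPS (20 µg/ml) over 7 days, giving 3 libraries per genotype. The KO is a germline line kept by matings of heterozygotes, so that all cells of a KO animal carry the allele and not B cells alone, and both genotypes received the same activation. TENT5C is a cytoplasmic poly(A) polymerase, an enzyme that lengthens the poly(A) tails of mRNAs. The replicate numbers, given in the labels as batches, each stand for 1 KO and 1 WT littermate and are called pairs 1, 2 and 3 below.

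N-linked glycosylation starts in the membrane of the endoplasmic reticulum (ER). A glycan made of N-acetylglucosamine (GlcNAc), mannose and glucose is assembled on the lipid dolichol, at first on the cytosolic face and then in the lumen, and the oligosaccharyltransferase (OST) moves it as a block to asparagines of proteins that enter the ER. The glucosidases then remove glucose residues, which passes the protein through the lectin chaperones that help it fold. Immunoglobulin (Ig) heavy chains carry N-glycans, so activated B cells and plasma cells, which secrete antibody, load this pathway heavily.

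Depth lay between 5393558 and 6793520 fragments on genes per library. The libraries labelled KO did not have less *Tent5c* mRNA, with 1993, 993 and 1170 normalized counts in pairs 1, 2 and 3, against 1255, 767 and 1584 in those labelled WT (log2 fold change 0.20, standard error 0.19, adjusted *p* = 0.970 from limma), so groups are called by their labels and this gene does not check them. Of 5 B cell markers, *Ms4a1*, which encodes CD20, lay between 9152 and 12045 normalized counts in WT and between 10161 and 11806 in KO, *Cd79b*, a signalling chain of the B cell receptor, between 5936 and 6534 in WT and between 5630 and 6634 in KO, and *Pax5*, a transcription factor of B cell identity, between 1334 and 1853 in WT and between 1671 and 1975 in KO. *Cd22*, an inhibitory coreceptor, lay between 2770 and 3278 in WT and between 2844 and 3561 in KO. *Cd79a*, the other signalling chain of the receptor, had 1531, 1611 and 1405 in WT and 1219, 1320 and 1398 in KO, lower in all 3 pairs with no overlap between groups (log2 fold change −0.21, standard error 0.080, unadjusted *p* = 0.039, adjusted *p* = 0.970 from limma). Of the 5 T cell markers, 0 had a mean of at least 10, and their sum was 5.23 to 40.9 in WT and 9.53 to 15.4 in KO. Of the 5 myeloid markers, *Lyz2* and *Adgre1* had a mean of at least 10 (sum 63.8 to 86.7 in WT and 18.1 to 128 in KO), and *S100a8* was at 0 in all 6 libraries. The 4 erythroid markers summed to 0 in 5 libraries and to 0.953 in 1. *Xist* and the Y-linked genes gave both libraries of pair 2 a female pattern and the other 4 a male one, so the sexes match within pairs.

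The RNA of the pathway was unevenly spread over its steps, with the OST far above the steps that feed it. To compare genes, the normalized count was divided by the kilobases of exon in each gene and averaged over the 6 libraries. The median level of the 10 OST genes on this scale was 316, that of the 3 glucose-trimming genes 190, and that of all 12322 genes tested 45.0. The 5 steps before the transfer had medians of 35.7 (dolichol supply), 63.2 (mannose activation), 56.6 (making and using dolichol-phosphate sugars), 24.6 (assembly on the cytosolic face) and 50.5 (assembly on the luminal face). The 22 genes of these steps ranged from 10.7 for *Dpm1* to 96.2 for *Dpm3*, and 9 of the 10 OST genes ranged from 227 to 642, so that these ranges did not overlap. The exception was *Dad1* at 83.1. With the length of the longest coding transcript in place of all exons, the 22 genes reached at most 165 and the same 9 OST genes started at 284. In unscaled normalized counts, the OST held between 69.6% and 74.0% of all counts on the 35 genes in every library.

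**Figure D1:**
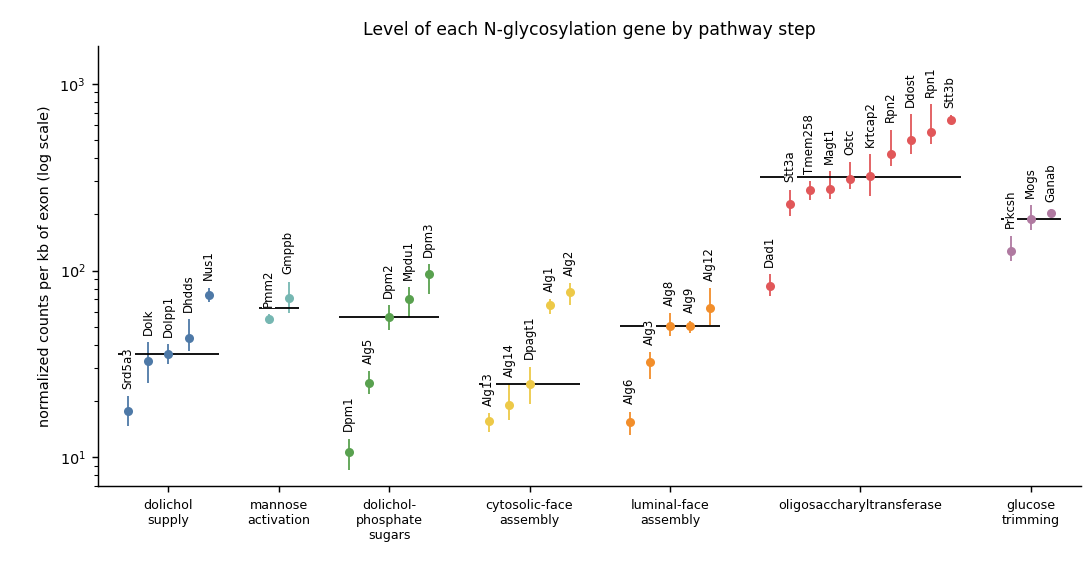
Level of each of the 35 genes in normalized counts per kilobase of exon, on a log axis, grouped by pathway step. Points are means over the 6 libraries, vertical lines run from the lowest to the highest library and horizontal lines are step medians, with the OST median of 316 above the trimming median of 190 and the 5 earlier steps between 24.6 and 63.2.

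Within the OST, *Stt3b* was highest at 642 per kilobase (lowest to highest library 606 to 679), followed by *Rpn1* at 553, *Ddost* at 503, *Rpn2* at 419, *Krtcap2* at 323, *Ostc* at 309, *Magt1* at 275, *Tmem258* at 270, *Stt3a* at 227 (196 to 271) and *Dad1* at 83.1 (72.8 to 95.6). Each neighbour in this order overlapped with the next over the 6 libraries, except *Stt3a* and *Dad1*. *Stt3a* and *Stt3b* encode the alternative catalytic subunits: the STT3A complex sits at the translocon and glycosylates chains as they enter the ER, and the STT3B complex can act on sites that were skipped. *Stt3b* was above *Stt3a* per kilobase of exon and also with coding transcript lengths, at 642 against 347. The order of the other subunits depended on the length used, since *Ostc* (796) and *Tmem258* (717) were the highest with coding transcript lengths.

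Between the genotypes, 0 of the 35 genes passed an adjusted *p* of 0.05 in limma (lowest 0.737, for *Ddost*), and 0% of the 12322 genes tested did. At an unadjusted *p* below 0.05, 6 of the 35 (17.1%) were lower in KO and 0 were higher, beside 3.03% of all genes tested lower and 1.67% higher. The 6 became 1 with no replicate block, that is without the pairing in the model, and 2 without pair 3. These 6 were the OST genes *Ddost*, *Stt3a*, *Rpn1*, *Rpn2* and *Magt1*, and *Prkcsh*, a subunit of a trimming glucosidase. Of the 35, 10 (28.6%) were lower in KO in all 3 pairs, beside 13.1% of all genes tested, and 1 (2.86%), *Alg6*, was higher in all 3 pairs, beside 11.7%. In 3 genes, *Ddost*, *Rpn1* and *Stt3b*, every KO library was below every WT library (8.57%, beside 3.44% of all genes tested). The median log2 fold change over the 35 was −0.06, with 27 negative. Over all 12322 genes tested it was 0.00067, with 6135 negative. DESeq2 on the recovered fragment counts called 0 of the 35 (lowest adjusted *p* = 0.411, for *Ddost*), beside 0.222% of genes called lower, and put 4 of them lower and 0 higher at an unadjusted *p* below 0.05. The quasi-likelihood test of edgeR put 6 lower and 0 higher at that *p*, and also called 0 genes of the table after adjustment. The shares of all genes tested are not matched for level, and the median per kilobase was 45.0 for all genes tested and 316 for the OST. Shares of all genes at an unadjusted *p* are given only for the main limma fit. The counts with no block, without pair 3, with DESeq2 and with edgeR have no such share beside them. The libraries are bulk RNA, in which fewer cells of a type and less RNA per cell cannot be told apart.

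**Figure D2:**
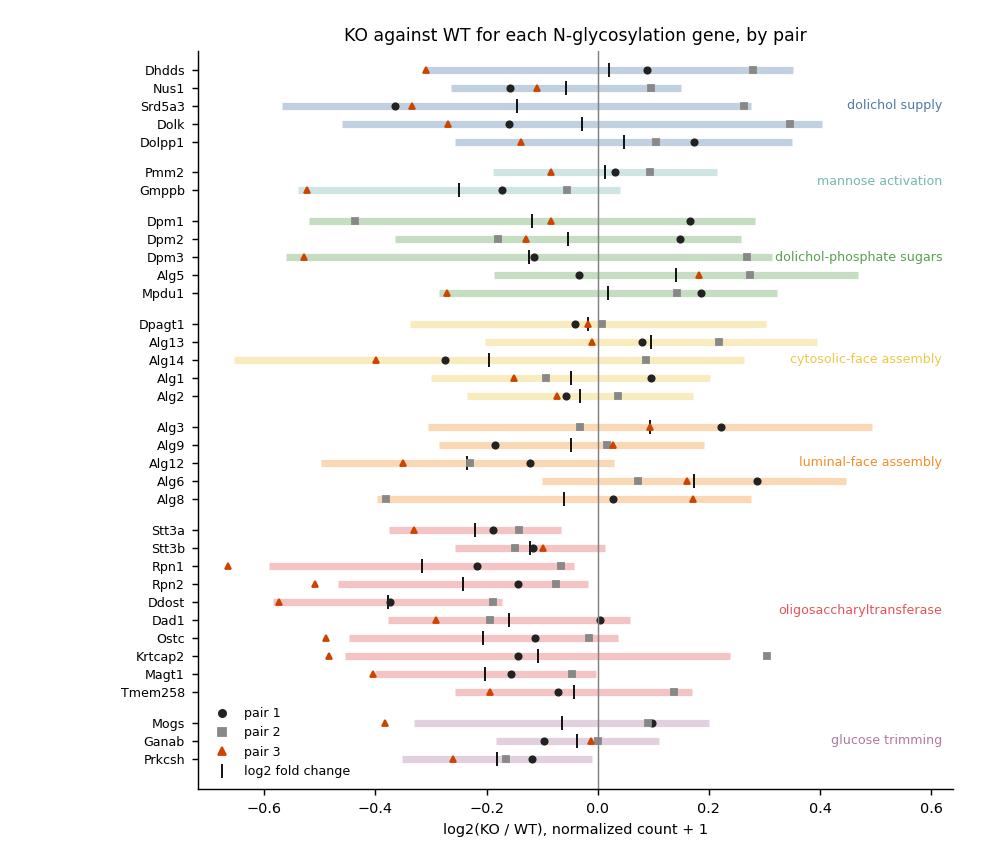
The log2 ratio of KO to WT, from normalized count + 1, for each of the 35 genes. Symbols are the 3 pairs, the short black line is the log2 fold change from limma and the shaded bar is its 95% confidence interval, and the 10 OST genes all have a negative log2 fold change, from −0.38 for *Ddost* to −0.04 for *Tmem258*.

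The OST had the lowest median of the 7 steps. All 10 of its genes had a negative log2 fold change, beside 6135 of the 12322 genes tested, and the OST median was −0.20. Of the 10, 7 were lower in KO in all 3 pairs, beside 13.1% of all genes tested. At an unadjusted *p* below 0.05 in limma, 5 were lower, beside 3.03% of all genes tested. *Ddost*, which encodes the OST48 subunit, had 1161, 1014 and 1456 normalized counts in the WT libraries of pairs 1, 2 and 3 and 896, 890 and 978 in the KO libraries. The groups did not overlap, and its log2 fold change was the most negative of the 35, at −0.38 (standard error 0.086, 95% confidence interval −0.58 to −0.17, unadjusted *p* = 0.0037, adjusted *p* = 0.737 from limma), or 23.1% lower in KO.

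*Rpn1* encodes ribophorin I, a shared OST subunit that helps to present some membrane proteins to the enzyme. It had 2610, 2251 and 3506 normalized counts in WT and 2244, 2149 and 2209 in KO, so that the highest KO library was just below the lowest WT library. Its log2 fold change was −0.32 (standard error 0.11), and −0.14 without pair 3, whose WT library was far above the other 5. *Rpn2*, ribophorin II, had 1845, 1703 and 2521 in WT and 1670, 1618 and 1772 in KO. Again the WT library of pair 3 stood apart, and the KO library of that pair lay above the lowest WT library. The log2 fold change of *Rpn2* was −0.24 (standard error 0.094), and −0.11 without pair 3.

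The catalytic subunits were both lower in KO in every pair. *Stt3a* had 2212, 1935 and 2429 normalized counts in WT and 1941, 1755 and 1930 in KO, with log2 ratios of −0.19, −0.14 and −0.33 in pairs 1, 2 and 3. The groups overlapped only because KO of pair 1 was 1941 and WT of pair 2 was 1935. *Stt3b* had 2776, 2865 and 2835 in WT and 2560, 2583 and 2648 in KO, with log2 ratios of −0.12, −0.15 and −0.10. It was the most even of the OST genes, with no overlap between groups. The log2 fold change was −0.22 for *Stt3a* (standard error 0.064, unadjusted *p* = 0.013, adjusted *p* = 0.926 from limma) and −0.12 for *Stt3b* (standard error 0.056, unadjusted *p* = 0.070, adjusted *p* = 0.970 from limma).

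*Magt1*, an X-linked gene for an oxidoreductase subunit of the STT3B complex, had 1383, 1166 and 1592 normalized counts in WT and 1241, 1129 and 1203 in KO. Its log2 ratios were −0.16, −0.05 and −0.40, and its log2 fold change of −0.20 became −0.10 without pair 3. *Ostc* and *Krtcap2* encode subunits particular to the STT3A complex. *Ostc* was lower in all 3 pairs (log2 ratios −0.11, −0.02 and −0.49, log2 fold change −0.21, and −0.06 without pair 3). *Krtcap2* was mixed, at −0.14, 0.30 and −0.48, with a log2 fold change of −0.11 that turned to 0.08 without pair 3. The small shared subunits were mixed as well. *Dad1* had 330, 326 and 374 in WT and 330, 285 and 306 in KO (log2 fold change −0.16, and −0.10 without pair 3), and *Tmem258* had a log2 fold change of −0.04 with log2 ratios of −0.07, 0.14 and −0.19.

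**Figure D3:**
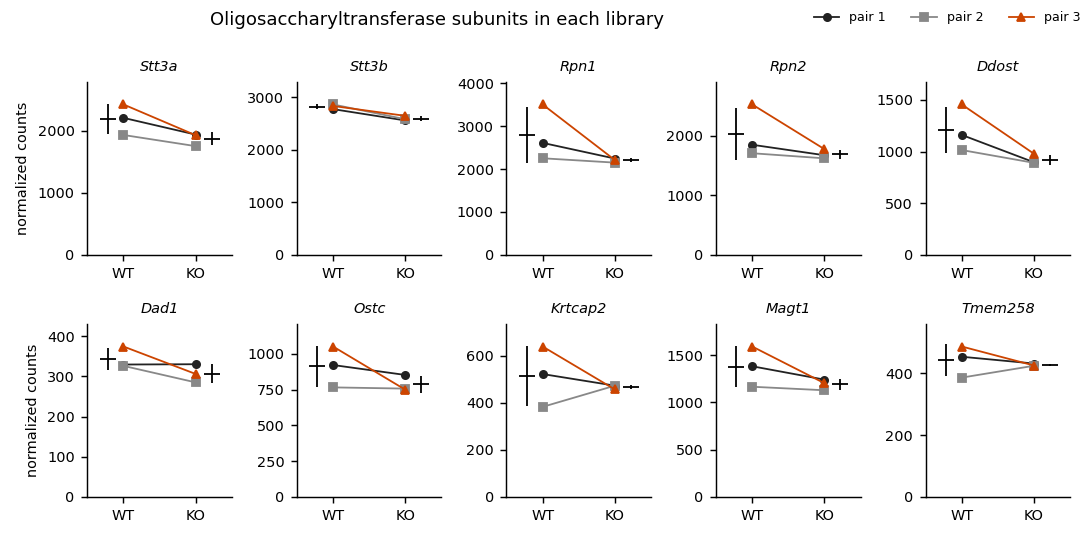
Normalized counts of the 10 OST genes in each library, from 0. Lines join the WT and KO library of a pair, and black marks are group means with their SD (n = 3), and in 9 of the 10 genes the WT library of pair 3 is the highest of the 6.

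The size of the OST difference depended on the pair. Summed over the 10 genes, the OST had 14213, 12794 and 16890 normalized counts in WT and 12638, 12063 and 12677 in KO. The 3 KO sums were each below the 3 WT sums, and KO varied little beside WT (mean 12459 ± 344 against 14632 ± 2080, SD, n = 3). The sums had log2 ratios of −0.17, −0.08 and −0.41 in pairs 1, 2 and 3, and without pair 3 the median log2 fold change of the OST was −0.11. The WT library of pair 3 was the highest of the 6 libraries in 9 of 10 OST genes and in 24 of the 35 members, against 23.1% of all genes tested.

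The same WT library also had the highest sum of plasma cell markers, but not the highest value of each marker. The 6 markers (*Sdc1*, *Prdm1*, *Irf4*, *Xbp1*, *Jchain* and *Tnfrsf17*) summed to 10895, 7906 and 18378 normalized counts in WT and 15767, 8049 and 10613 in KO, or log2 ratios of 0.53, 0.03 and −0.79, with 5 of the 6 at a mean of at least 10. *Tnfrsf17*, which encodes the plasma cell survival receptor BCMA, was at or under 1.89 in every library. WT of pair 3 was the highest library in *Jchain* (8096) and *Sdc1* (72.2). *Jchain* was the largest part of the sum in that library, with a log2 ratio of −1.57 in pair 3. The ratios of *Sdc1*, *Prdm1*, *Irf4* and *Xbp1* in pair 3 lay between −0.52 and −0.33. KO of pair 1 was the highest in *Prdm1* (565 against 409 in WT of pair 3), *Irf4* (3664 against 3338) and *Xbp1* (6743 against 6463). The share of normalized counts on Ig genes was 2.52%, 1.51% and 3.30% in WT and 2.09%, 1.02% and 1.54% in KO. The paper measured *Jchain* with the Ig mRNAs, which it reports as lower in KO. Between genotypes, *Jchain* and the Ig share thus do not measure plasma cell content alone. In pair 1 the OST sum was lower in KO while the plasma cell marker sum was higher, and in pair 3 both were lower in KO. The part of the plasma cell markers in the OST ratios was not tested.

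The steps were also compared within each pair, where the high WT library of pair 3 stays in the ratios of that pair. The median log2 ratio of the OST was −0.14, −0.07 and −0.44 in pairs 1, 2 and 3, and that of the 22 genes upstream of the transfer was −0.0033, 0.08 and −0.12. The OST median was thus below the pooled upstream median in 3 of 3 pairs, with differences of −0.14, −0.15 and −0.32 (mean −0.21 ± 0.10, SD, n = 3 pairs). Of the 7 steps, the OST had the lowest median log2 fold change over these same pairs, so this order is a description and not a test. With TMM scaling the OST medians were −0.14, −0.06 and −0.43 and the upstream medians −0.0028, 0.09 and −0.10, and with quantile normalization −0.14, −0.07 and −0.42 against −0.02, 0.08 and −0.09. The order of these medians was the same in every pair. TMM scaling shifts all ratios of a pair by nearly the same amount, and quantile normalization came close to this. The order within a pair could thus hardly change, and neither scaling is a check of it. Step by step the OST was not the lowest in every pair: in pair 1 the median of dolichol supply was −0.16 and that of the OST −0.14. In pair 3, 30 of the 35 genes were lower in KO, against 22 in pair 1 and 16 in pair 2. Over all genes tested, 53.2%, 49.9% and 49.5% were lower in KO in pairs 1, 2 and 3. Across the 35 genes, level per kilobase and log2 fold change had a Spearman correlation of −0.60 (−0.49 with coding transcript lengths), a description of genes that share the same 6 libraries.

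**Figure D4:**
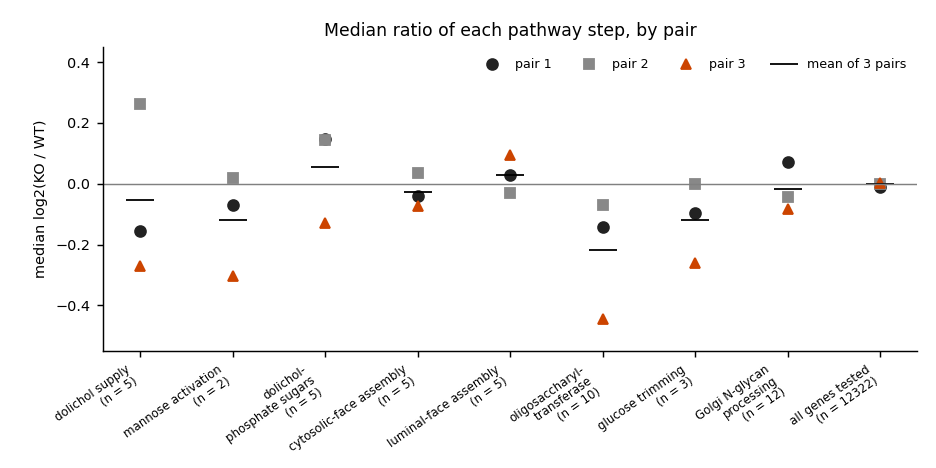
Median log2 ratio of KO to WT for each pathway step, for 12 genes of Golgi N-glycan processing and for all genes tested. Symbols are the 3 pairs and lines are the means of the 3 pair medians, and the OST median is negative in all 3 pairs, while glucose trimming is near 0 in pair 2 and the other 5 steps each have a positive median in at least 1 pair.

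The promoters of *Ddost*, *Rpn1*, *Stt3a*, *Alg12* and *Krtcap2* are shown, with the boxes of the ER stress response element (ERSE). The ERSE is a DNA element through which the unfolded protein response acts on ER genes, and consists of CCAAT, 9 bases of any kind and CCACG. The sequences run from 250 bases before to 50 after the RefSeq start, 5′ to 3′ on the strand of the gene, on GRCm38.p6, and capitals mark CCAAT and CCACG on either strand, which read ATTGG and CGTGG on the opposite strand.
Ddost promoter, chr4:138304488-138304787, plus strand: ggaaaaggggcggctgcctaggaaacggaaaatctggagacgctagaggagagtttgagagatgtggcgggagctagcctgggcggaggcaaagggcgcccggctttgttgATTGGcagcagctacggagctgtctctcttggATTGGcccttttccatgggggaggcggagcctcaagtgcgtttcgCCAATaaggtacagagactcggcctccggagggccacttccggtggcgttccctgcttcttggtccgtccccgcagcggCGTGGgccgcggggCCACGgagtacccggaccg
Rpn1 promoter, chr6:88084223-88084522, plus strand: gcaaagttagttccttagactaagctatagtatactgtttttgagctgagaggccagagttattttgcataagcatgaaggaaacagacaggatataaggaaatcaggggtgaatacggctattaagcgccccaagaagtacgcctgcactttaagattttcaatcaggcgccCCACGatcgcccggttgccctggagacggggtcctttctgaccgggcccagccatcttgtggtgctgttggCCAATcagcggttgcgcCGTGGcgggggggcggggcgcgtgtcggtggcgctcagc
Stt3a promoter, chr9:36767573-36767872, minus strand: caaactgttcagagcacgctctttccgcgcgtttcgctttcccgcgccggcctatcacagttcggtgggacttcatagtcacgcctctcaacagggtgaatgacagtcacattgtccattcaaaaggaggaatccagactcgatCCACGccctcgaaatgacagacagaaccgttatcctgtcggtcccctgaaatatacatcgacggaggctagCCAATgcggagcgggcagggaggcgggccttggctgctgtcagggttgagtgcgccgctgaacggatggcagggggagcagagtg
Alg12 promoter, chr15:88819269-88819568, minus strand: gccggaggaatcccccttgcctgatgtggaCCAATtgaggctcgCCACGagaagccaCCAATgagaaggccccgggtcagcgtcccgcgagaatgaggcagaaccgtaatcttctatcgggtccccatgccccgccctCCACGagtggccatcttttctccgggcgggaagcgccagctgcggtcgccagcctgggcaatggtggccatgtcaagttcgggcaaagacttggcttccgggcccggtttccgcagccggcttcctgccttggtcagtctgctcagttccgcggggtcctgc
Krtcap2 promoter, chr3:89246223-89246522, plus strand: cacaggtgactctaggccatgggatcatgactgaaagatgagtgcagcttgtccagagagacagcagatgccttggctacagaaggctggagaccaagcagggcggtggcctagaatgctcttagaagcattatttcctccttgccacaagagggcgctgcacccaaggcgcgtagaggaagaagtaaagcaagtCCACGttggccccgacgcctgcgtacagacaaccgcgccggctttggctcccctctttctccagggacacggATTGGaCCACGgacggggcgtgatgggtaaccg

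*Ddost*, *Rpn1* and *Stt3a* were chosen as the members with the lowest unadjusted *p*-values, and *Alg12* and *Krtcap2* as the only members with a full element. The RefSeq table held 34 promoters for 31 of the 35 genes, and none for *Alg2*, *Gmppb*, *Dpagt1* and *Ostc*. In *Ddost*, CCAAT lies on the opposite strand from −139 to −135 and from −107 to −103 and on the gene's strand from −62 to −58, counting the start site as 0, with CCACG boxes downstream of the start. The full ERSE, searched on both strands, was in 39 of 32851 mouse promoters of this length (0.119%), and among the 35 genes in *Alg12*, from −220 to −202. The ERSE-II, ATTGG and CCACG with 1 base between them, was in 12 promoters (0.0365%), among them 1 of *Krtcap2*, from 17 to 27. The UPR element TGACGTGG was in 222 promoters (0.676%) and in 0 of the 34. The letters of the boxes alone are common: CCAAT was in 37.4% and CCACG in 32.8% of all promoters, and both in 11.7%. Of the 34 promoters, 11 (32.4%) held both, those of *Alg12*, *Dad1*, *Ddost*, *Dhdds*, *Dpm1*, *Ganab*, *Krtcap2*, *Nus1*, *Rpn1*, *Stt3a* and *Stt3b*. CCAAT and CCACG are parts of the ERSE and of the ERSE-II, so these counts overlap. A match is a run of letters and not a measured binding site. Whether these elements bear on the ratios of KO to WT was not tested.

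The trimming glucosidases act once the glycan is on the protein. *Mogs*, glucosidase I, removes the outermost glucose, and glucosidase II, made of the catalytic subunit *Ganab* and the subunit *Prkcsh*, removes the glucoses that remain. *Prkcsh* had 534, 538 and 657 normalized counts in WT and 492, 480 and 548 in KO, lower in all 3 pairs, although KO of pair 3 was above WT of pairs 1 and 2. Its log2 fold change was −0.18 (standard error 0.071, unadjusted *p* = 0.041, adjusted *p* = 0.970 from limma). *Ganab* had 1165, 1064 and 1140 in WT and 1089, 1065 and 1130 in KO. Its groups overlapped almost fully, and its log2 fold change was −0.04 (95% confidence interval −0.18 to 0.11). *Mogs* had a log2 fold change of −0.06, with ratios of 0.10, 0.09 and −0.38.

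Upstream of the transfer, 14 of the 22 genes had a negative log2 fold change, beside 6135 of the 12322 genes tested. The median of the 22 was −0.04, and 0 had an unadjusted *p* below 0.05 in limma, beside 3.03% of all genes tested lower and 1.67% higher. Genes of similar log2 fold change differed in standard error. It was 0.12 for *Gmppb* (−0.25) and 0.11 for *Alg12* (−0.23) upstream, against 0.094 for *Rpn2* (−0.24) and 0.064 for *Stt3a* (−0.22) in the OST. In all 3 pairs, 2 were lower in KO (beside 13.1% of all genes tested) and 1 was higher (beside 11.7%). Dolichol is made from a long polyprenol. *Dhdds* and *Nus1* together form the enzyme that builds this chain, *Srd5a3* acts in its conversion to dolichol, *Dolk* phosphorylates dolichol and *Dolpp1* recycles it after the transfer. *Nus1*, the highest of the 5 per kilobase, had 367, 341 and 395 normalized counts in WT and 329, 364 and 366 in KO (log2 fold change −0.06). *Srd5a3*, the lowest per kilobase of exon (17.6, but 46.9 with the coding transcript length, where *Dolk* was lowest at 32.7), had 87.8, 72.1 and 98.7 in WT and 68.0, 86.7 and 78.1 in KO, with a log2 fold change of −0.15 (95% confidence interval −0.57 to 0.28). In both the groups overlapped, and the direction in pair 2 was opposite to that in the other pairs. The log2 fold changes of *Dhdds*, *Dolk* and *Dolpp1* were 0.02, −0.03 and 0.05. All 5 genes were higher in KO in pair 2 and lower in pair 3, and 3 of the 5 were lower in pair 1, with medians of −0.16, 0.26 and −0.27 in pairs 1, 2 and 3.

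*Pmm2*, the phosphomannomutase, and *Gmppb*, the catalytic subunit of GDP-mannose pyrophosphorylase, make the activated mannose. *Pmm2* had 299, 286 and 323 normalized counts in WT and 306, 306 and 304 in KO (log2 fold change 0.01). *Gmppb* had 236, 172 and 243 in WT and 210, 165 and 169 in KO, lower in all 3 pairs, with groups that overlapped. Its log2 fold change was −0.25 (unadjusted *p* = 0.080, adjusted *p* = 0.970 from limma), and −0.11 without pair 3. The exons of *Gmppb* share 3.99% of their bases on the same strand with another gene model, and those of *Dpm1* 12.0%.

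In the lumen, mannose and glucose come from dolichol-phosphate sugars. *Dpm1* is the catalytic subunit of dolichol-phosphate mannose synthase, *Dpm2* and *Dpm3* hold and stabilise it in the membrane, *Alg5* makes dolichol-phosphate glucose, and *Mpdu1* is needed to use both. *Dpm1*, the lowest of the 35 per kilobase of exon (10.7, but 34.8 with the coding transcript length, where *Alg14* was lowest at 23.4), had 84.1, 86.8 and 77.1 normalized counts in WT and 94.4, 63.9 and 72.6 in KO (log2 fold change −0.12). *Dpm3* had 99.2, 77.4 and 99.9 in WT and 91.5, 93.4 and 69.0 in KO (log2 fold change −0.12). Neither kept 1 direction over the pairs, and the log2 fold changes of *Dpm2*, *Alg5* and *Mpdu1* were −0.05, 0.14 and 0.02.

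*Dpagt1* attaches the GlcNAc that starts the glycan and is the enzyme that tunicamycin blocks. It had 68.0, 81.6 and 104.8 normalized counts in WT and 66.1, 82.0 and 103.5 in KO, so that the libraries of a pair were nearly the same, while the pairs differed. Its log2 fold change was −0.02 (95% confidence interval −0.34 to 0.30). *Alg13* and *Alg14* form the enzyme that adds the next GlcNAc. X-linked *Alg13* had 98.2, 94.1 and 118 in WT and 103.8, 109.6 and 117.1 in KO (log2 fold change 0.10), and *Alg14*, the lowest of the 35 in counts, had a log2 fold change of −0.20 with ratios of −0.27, 0.09 and −0.40. *Alg1* and *Alg2* add mannoses on the cytosolic face, as does *Alg11*, which is not among the 35. *Alg2*, the highest of this step per kilobase of exon (76.4, but below *Alg1* with the coding transcript length, at 87.2 against 99.9), had 296, 227 and 278 in WT and 284, 233 and 264 in KO (log2 fold change −0.03), and *Alg1* had a log2 fold change of −0.05.

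On the luminal face, 1 of the 5 genes was lower in KO in all 3 pairs and 1 was higher, beside 13.1% and 11.7% of all genes tested. *Alg12*, a mannosyltransferase and the highest of this step per kilobase, had 152, 142 and 190 normalized counts in WT and 140, 121 and 149 in KO. It was lower in all 3 pairs, with overlapping groups and a log2 fold change of −0.23 (unadjusted *p* = 0.073, adjusted *p* = 0.970 from limma). *Alg6*, which adds the innermost glucose and is the lowest of the step per kilobase of exon (15.4, but above *Alg3* with the coding transcript length, at 42.7 against 37.9), had 123, 136 and 112 in WT and 150, 143 and 125 in KO. It was higher in all 3 pairs (as was *Alg13* under TMM and quantile scaling, though not here), with overlapping groups and a log2 fold change of 0.17 (unadjusted *p* = 0.175, adjusted *p* = 0.970 from limma). *Alg8*, which adds the next glucose, had a log2 fold change of −0.06 with ratios of 0.03, −0.38 and 0.17, and the mannosyltransferases *Alg3* and *Alg9* had 0.09 and −0.05.

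No gene next to the pathway was at an unadjusted *p* below 0.05 in limma, beside 3.03% of all genes tested lower and 1.67% higher. Of 18 other ER and precursor genes, such as *Alg10b*, *Ost4* and *Uggt1*, 17 passed the filter. Their median log2 fold change was −0.06, as was that of the 35 genes. Of the 17, 14 were negative, beside 6135 of the 12322 genes tested. In all 3 pairs 5 were lower in KO, beside 13.1% of all genes tested. These 5 were *Alg11* (a cytosolic mannosyltransferase, −0.19), *Ngly1* (a deglycosylase, −0.18), *Pgm3* (−0.17) and *Gfpt1* (−0.12), both of GlcNAc synthesis, and *Uggt1* (a folding sensor, −0.06). *Ost4* and *Tusc3*, which encode further OST subunits, had log2 fold changes of −0.03 and −0.01. *Uggt2* did not pass the filter. Of 13 Golgi genes that process N-glycans, 12 passed it, with a median of 0.02 and 5 negative. The only one of these lower in all 3 pairs was *St6gal1*, the sialyltransferase of N-glycans, at −0.11, beside 13.1% of all genes tested. *Man1c1* did not pass the filter.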

How the data were processed

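The 35 genes, the pathway steps and the marker lists were chosen with earlier results of these data known. Total RNA depleted of rRNA was sequenced as strand-specific paired-end libraries from 3 KO and 3 WT samples. The authors aligned the reads with STAR (2.6.1a) to GRCm38, counted properly paired fragments on exons by strand with featureCounts (Subread 1.6.3) and normalized with DESeq2 size factors. What was deposited is this signal, on the scale of counts. All values above 0 (100%, tolerance 0.001) were whole multiples of the smallest step of a library, from which fragment counts were recovered. A 0 leaves room for up to 3 fragments, or 2.72 to 3.61 normalized counts by library, for counting error only. Scaling to equal medians hides a change shared by most transcripts. Symbols, exons and lengths were taken from Gencode vM21 (GRCm38), where 54409 of 54446 identifiers were found and the other 37 were not. Promoters came from RefSeq (GRCm38.p6).

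The test was limma 3.58.1 in R 4.3.3 (trended eBayes), run on log2(normalized count + 1) of the 12322 genes whose mean reached 10. The model held the genotype and the batch as a replicate block, tests were two-sided, and *p*-values were adjusted by Benjamini-Hochberg over all these genes (threshold 0.05). Fold changes on this scale understate those of low genes. Littermates form the pairs, and the libraries of a pair deviated together from their group means (correlations over genes 0.328, 0.685 and 0.170). No libraries were duplicates (chi-square per gene 4.82 to 24.3 over 15 pairs of libraries). Alternatives were a pseudocount of 5, no filter, a mean of at least 50, TMM and quantile scaling, no block, edgeR 4.0.16 and DESeq2 1.42.0 on the fragment counts, each replicate left out, and other gene lengths, of which the coding transcript length was added after seeing the data. The fits were tested on simulated data. Named with values in every library were genes with an unadjusted p below 0.05, the highest and lowest per kilobase in each step, both catalytic subunits, *Dpagt1* and the X-linked *Magt1* and *Alg13*. Statistics on lists are counts and medians, with no test over the members. Of the B cell markers, 1 is not reported here.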

Additional observations from a re-analysis of the deposited data

How the results depend on the processing

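With 3 pairs, differences of the size seen here did not pass adjustment in limma, and depth limits the genes with fewest counts, such as *Alg14*. The counts of all genes at an adjusted *p*-value under 0.05, 0 lower and 0 higher in limma, were 22 and 1 with DESeq2 and ranged from 0 to 168 lower (168 without replicate 1) and from 0 to 3 higher when a replicate was left out. The count of members lower at an unadjusted *p* below 0.05 was 1 with no replicate block, in place of 6 with the pairing in the model, and 2 to 6 when a replicate was left out (2 without replicate 3). The share of all genes under these alternatives is not given. The count of members higher in all 3 pairs was 2 with TMM scaling and 2 with quantile normalization. With the longest transcript and the longest coding transcript as length, median levels per kilobase were 50.4 and 50.4 for dolichol supply, 101.0 and 119 for mannose activation, 79.0 and 79.0 for dolichol-phosphate sugars, 38.2 and 59.3 for the cytosolic face, 68.7 and 68.7 for the luminal face, 459 and 572 for the OST and 243 and 243 for trimming. The median log2 fold change of the luminal face ranged from −0.08 to 0.10 when a replicate was left out. Among the values of single members under the alternatives, 367 kept their direction and side of the threshold and 17, in 14 members, changed sign, each time when 1 pair was left out. Their ranges were −0.11 to 0.18 for *Dhdds*, −0.21 to 0.09 for *Dolk*, −0.016 to 0.14 for *Dolpp1*, −0.027 to 0.063 for *Pmm2*, −0.26 to 0.041 for *Dpm1*, −0.15 to 0.0099 for *Dpm2*, −0.32 to 0.077 for *Dpm3*, −0.064 to 0.16 for *Mpdu1*, −0.12 to 0.0016 for *Alg1*, −0.084 to 0.021 for *Alg9*, −0.18 to 0.099 for *Alg8*, −0.31 to 0.081 for *Krtcap2*, −0.13 to 0.032 for *Tmem258* and −0.15 to 0.094 for *Mogs*. The other 21 members, among them the 6 at an unadjusted *p* below 0.05, did not change sign under any alternative. Those 6 were lower in KO in all 3 pairs, so leaving out 1 pair could not change their sign. The cause of the shifts under the alternatives was not tested.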
